A study of Mus musculus with 5 samples.

Results

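The pair of libraries described here came from the luminal layer of the mouse uterus on the morning and on the evening of day 4 of pregnancy. They are 2 of the 5 wild-type libraries of the series that were analysed. They were chosen as the only ones from within the day on which the uterus becomes receptive, with earlier results of these data known. All 5 libraries came from wild-type mice of the strain C57BL/6N, with no mutant allele and no treatment named for them, and the day of the vaginal plug counted as day 1. The other 3 libraries are used only to place the day 4 values. They came from day 3 morning and from 2 sites of the day 5 morning uterus, the layer around the attached embryo and the layer away from it. The deposited labels also name these sites by uterine pole, Ampole (anti-mesometrial) around the embryo and Mpole (mesometrial) away from it. Closeness to the embryo and pole therefore cannot be told apart. The question the pair addresses is what changes in the luminal epithelium during the hours between reaching receptivity and embryo attachment. The study describes laser microdissection of the luminal epithelium, with RNA of several independent samples pooled per group, for its Lif genotypes, while the labels of the wild-type libraries speak of a luminal layer. Whether these libraries were pooled in the same way, and from how many mice, is not given in the sources used here. Each time of day is 1 library, so no difference below has a replicate check, and no p-value is given.

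On the day of receptivity a small surge of estrogen acts on a uterus already under progesterone. The uterine glands then secrete Lif, a cytokine of the interleukin 6 family, which reaches the luminal epithelium and signals there through Lifr, the shared coreceptor gp130 (gene Il6st), Jak kinases and Stat3. The luminal epithelium has stopped dividing by then, and in the following hours it passes from a receptive to an attaching surface.

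The authors deposited raw counts for 23420 genes, with 19529491 counts in the morning library and 16560409 in the evening library. TMM scaling turned them into CPM, counts per 1e6 of a library, and 12915 genes were kept, those that averaged 1 CPM or more over the 5 libraries. A change is the difference of log2 CPM, evening minus morning, with a prior count of 2 that pulls low counts towards 0. The range in brackets is the exact 95% interval (Clopper-Pearson) of the log2 ratio of the scaled counts without a prior count. It covers counting error only, and the spread between mice is not known. Where a gene had no count at one time, the fold is a bound against a floor of 3 counts, which is 0.167 CPM in the morning and 0.190 CPM in the evening.

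Most genes kept their level across the day. Of the 12915 genes, 9003 (69.7%) lay within 1.5-fold, and the quartiles of all changes were -0.35 and 0.35 on the log2 scale around a median of 0. In the evening 931 genes (7.21%) were at least 2-fold higher and 898 genes (6.95%) at least 2-fold lower. With 1 library a side these are shares past a fold and not calls of a test, and they are the background for every count of members below. Large differences were more often increases, with 112 genes at least 8-fold higher and 52 at least 8-fold lower. Most of them were genes of low level, and 23 and 9 of them averaged 10 CPM or more over the pair. The share past 2-fold in either direction was 27.9% among the 4455 genes under 10 CPM, 7.14% among the 6709 genes between 10 and 100 CPM and 6.23% among the 1751 genes of at least 100 CPM. For 499 of the higher and 401 of the lower genes the whole counting interval lay beyond 2-fold. Ranked genes below are therefore drawn from the 8460 genes that averaged 10 CPM or more over the pair, of which 302 were higher and 286 lower.

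**Figure D1:**
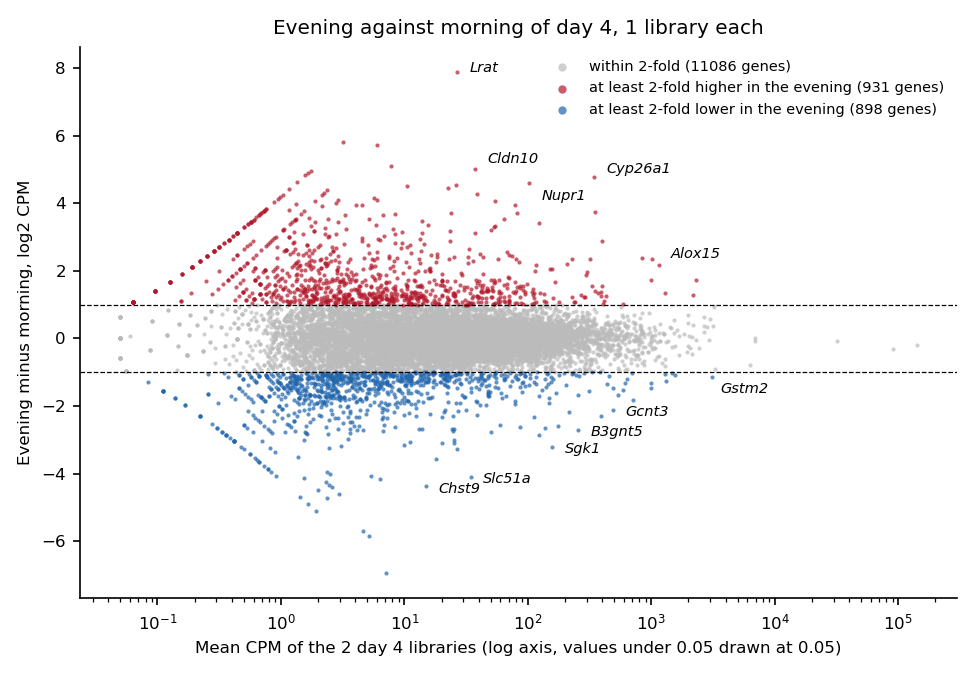
Each point is 1 of 12915 genes, with its mean CPM over the 2 day 4 libraries on a log axis and its evening minus morning difference in log2 CPM on the vertical axis; dashed lines mark 2-fold. The 931 higher and 898 lower genes lie mostly at low levels, and Lrat, Cldn10, Cyp26a1 and Nupr1 stand at the top of the genes above 10 CPM.

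The labelled tissue was checked against markers. All 10 luminal epithelium markers were kept and 0 of them differed 2-fold, with a summed level of 12706 CPM in the morning and 9339 CPM in the evening, with the most counts from the vitamin D dependent calcium binder Calb1 (143278 and 73114). Of the 10 stromal markers 0 differed 2-fold, and their sum was 502 and 582 CPM. Leukocyte markers summed to 342 CPM in the morning and 305 CPM in the evening, endothelial markers to 26.7 and 31.4 CPM, smooth muscle markers to 18.9 and 24.4 CPM, blood cell markers to 2.90 and 9.92 CPM and blastocyst markers to 11.9 and 8.22 CPM. Beneath these sums, 4 of the 5 smooth muscle markers kept were at least 2-fold higher in the evening and 0 lower, with a median change of 1.46. Tagln had 11 and 73 counts, Acta2 27 and 59, Myh11 9 and 25 and Cnn1 0 and 6, while Des, with the most counts, had 293 and 223. Of the other markers kept, 1 of 6 endothelial genes was higher and 1 lower, 1 of 5 blastocyst genes and the single blood cell gene were higher, and 0 of 7 leukocyte genes differed 2-fold. The embryo genes Cdx2, Pou5f1, Nanog, Gata4 and Zfp42 had 0 counts at both times. Markers of the uterine gland summed to 6.29 CPM in the morning and 2.02 CPM in the evening, with 3 of 8 at 0 counts in the morning and 5 of 8 in the evening, and of the 5 kept 1 was higher and 3 lower. The part of these other cells in the results was not tested. The features Rn45s and Lars2, which collect ribosomal RNA reads, took 23.2% of the counts in the morning and 20.4% in the evening.

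The abundant end of the profile moved little. Per exon length, the most abundant features in the pair were Rn45s and Lars2, followed by the lysosomal protease Ctsd at 16748 RPKM in the morning and 15738 RPKM in the evening, and the actin-binding Tmsb4x at 10597 and 10044 RPKM. The calcium-binding protein S100g was at 4375 and 6749 RPKM, the metallothionein Mt1 at 2708 and 3206 RPKM, and the translation factor Eef1a1 at 3865 and 3869 RPKM. The ribosomal protein genes Rpl41 and Rpl7 changed by 0.13 and 0.19 on the log2 scale. Among these 10 only the glutathione transferase Gstm2 differed 2-fold, from 4102 RPKM in the morning to 1876 RPKM in the evening (log2 change -1.13 [-1.15, -1.11]).

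The gene with the largest increase was Lrat, the enzyme that stores retinol as retinyl esters, on chromosome 3 (82892582 to 82903974 in GRCm38/mm10). It had 2 counts in the morning and 844 in the evening (log2 change 7.88 [7.05, 11.95]). It was also low on day 3, with 6 counts, and higher again on day 5, with 1960 and 8262 counts away from and around the embryo. Another gene of retinoid handling stood close to it in the ranking. Cyp26a1, which breaks down retinoic acid (chromosome 19, 37697808 to 37701536), went from 432 to 10542 counts (log2 change 4.79 [4.65, 4.93]), between 605 on day 3 and 99164 and 103074 in the day 5 libraries away from and around the embryo. Thus both the storage and the breakdown enzyme of the pathway were among the 3 largest increases. Aldh1a2, which makes retinoic acid, had 128 counts in the morning and 190 in the evening (0.74). Its relative Aldh1a1 had a change of -0.83. Aldh1a3 lay near the floor with no count in the morning, so its change of 3.29 depends on the prior count and is not a measured fold. Cyp26c1, a relative of Cyp26a1 that was picked after its values were seen, had 36 and 236 counts.

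Cldn10, a claudin of tight junctions (chromosome 14, 118787871 to 118874525), was second, with 38 counts in the morning and 1143 in the evening (5.02 [4.63, 5.60]). It stood alone in its family. Of the 36 junction genes kept from a list of tight and adherens junction genes, 1 was higher and 1 lower by 2-fold, and the list's median change was -0.04 against 0 for all genes. The lower one was Cldn8, with 691 and 263 counts (-1.21). The abundant claudins Cldn3 (44038 and 28395 counts) and Cldn7 (13057 and 14180) and the adherens junction protein Cdh1 (10617 and 9708) stayed within 2-fold, and on day 5 Cldn10 had 9249 and 15981 counts away from and around the embryo.

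The other 12 genes of the upper ranking ran from 4.60 to 3.48 on the log2 scale. Nupr1, a small nuclear protein induced by stress, had 143 counts in the morning and 3103 in the evening. The glycolytic enzyme Aldoc had 37 and 800 counts, the matrix-associated signalling protein Cyr61 33 and 679, and the R-spondin receptor Lgr5 108 and 1617. Several encode proteins that are secreted or lie at the surface. Sftpd, a collectin of innate defence, had 168 and 2322 counts, and the secreted metalloprotease Adamts9 had 39 and 402. Sprr2g of the small proline-rich family had 879 and 10278 counts, and its near-identical relatives can share its reads. The remaining members were Osmr, described below, Gadd45a, a growth arrest and stress gene (204 and 2398 counts), Arid5a, an RNA-binding protein (183 and 1876), the synaptic adhesion gene Lrrtm2 (59 and 706) and Sowaha (14 and 318).

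Among the decreases Chst9, a sulfotransferase of glycan chains on chromosome 18, came first, with 513 counts in the morning and 20 in the evening (-4.38 [-5.22, -3.86]). Slc51a, a subunit of a transporter for steroid and bile acid conjugates (chromosome 16, 32475578 to 32487879), had 1167 and 58 counts (-4.11 [-4.55, -3.77]), and on day 5 it had 16 and 0 counts in the layers away from and around the embryo. The kinase Sgk1, which raises epithelial sodium uptake (chromosome 10, 21882184 to 21999902), went from 5105 to 481 counts (-3.22 [-3.36, -3.09]). Unlike Slc51a, it was high before and after, with 13772 counts on day 3 and 5584 and 7110 on day 5. Bbc3, which promotes apoptosis, had 805 counts in the morning and 82 in the evening, and the growth factor gene Fgf1 had 3913 and 478. A glycolipid enzyme had the most counts of the 15 in the morning. B3gnt5, which starts the lacto-series of glycolipids, had 7930 counts in the morning and 1067 in the evening (-2.71 [-2.80, -2.62]). The others were the matrix protein gene Wisp1, the G protein regulator Rgs16, the secreted proteoglycan Tsku, the sodium iodide symporter Slc5a5, the thioesterase Olah, the pentraxin Nptx1, the receptor Gpr82, Atf7ip2 and a gene whose name the deposited table gives in the form of a date, 4-Sep, with changes from -3.57 to -2.69.

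**Figure D2:**
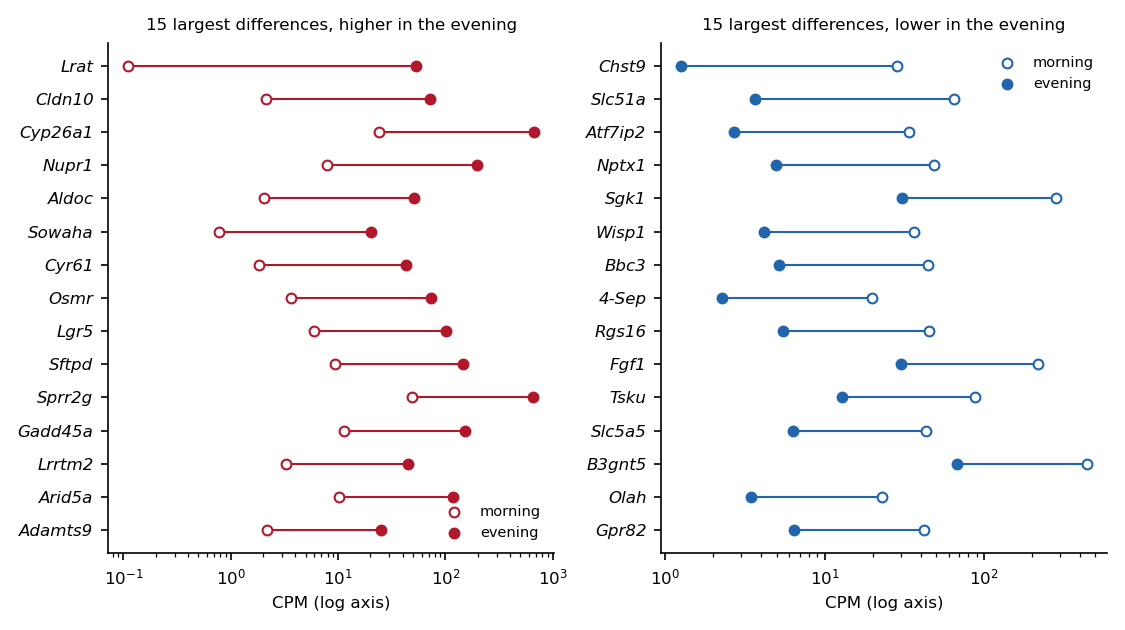
Open circles give the morning CPM and filled circles the evening CPM, on a log axis, of the 15 genes with the largest increase (left) and the 15 with the largest decrease (right) among genes of at least 10 CPM; each circle is 1 library. Lrat moves over the widest range, from 2 to 844 counts, and Sgk1 and B3gnt5 have the most counts of the right panel in the morning.

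Osmr and Lifr were the receptor genes of the Lif family that passed 2-fold. Osmr, the oncostatin M receptor subunit that pairs with gp130 (chromosome 15, 6813577 to 6874313), had 66 counts in the morning and 1166 in the evening (4.28 [3.97, 4.71]). Lifr, the Lif receptor subunit, had 1273 and 2869 counts (1.35 [1.26, 1.45]), and Il6st, which encodes gp130, had 471 and 617 (0.57), short of 2-fold. The related receptor genes Il6ra and Il11ra1 had changes of 0.66 and -0.13. Clcf1, another ligand of the family, had 92 and 191 counts. The ligand Lif had 17 counts in the morning and 0 in the evening, at least 4.99-fold lower, at a level near the floor of the library. Lif is itself one of the gland markers summed above. The transducers followed in neither direction as a group. Stat3 had 4040 and 4312 counts (0.28), Jak1 3059 and 4597 (0.77) and Jak2 13271 and 8002 (-0.55), while Stat5a was lower, at 348 and 148 (-1.04). In the list of 17 receptors and Jak-Stat components kept, 3 were higher and 3 lower by 2-fold, with a median of 0.02.

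A list of feedback and response genes linked to Stat3 held several increases past 2-fold and no such decrease. Of 21 feedback and response genes kept, 9 were at least 2-fold higher and 0 lower, and the median change was 0.79 against 0 for all genes. Socs3, the inhibitor that shuts off gp130 signalling (chromosome 11, 117966087 to 117969366), had 174 counts in the morning and 1426 in the evening (3.20 [2.99, 3.45]). The transcription factor Cebpd had 1332 and 6022 counts (2.36 [2.27, 2.45]), and the nuclear cofactor Bcl3 had 221 and 1098 (2.48). Both are known targets of Stat3. The protease inhibitor Timp1 had 44 and 260 counts, the iron-chelator binder Lcn2 58 and 305, and Myc 268 and 561. Pim1 had 0 counts in the morning and 24 in the evening, at least 9.08-fold higher, and Lrg1 had 4 and 52. Not all members moved. Socs1 (327 and 306 counts), Socs2 (1241 and 1136), Bcl6 (296 and 258) and Irf1 (567 and 487) had changes between -0.04 and 0.09, and Pim3 had 2545 and 1512 (-0.57).

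Promoter stretches of 140 bases are shown for a pair of genes that were higher and a pair that stayed level, because all 4 hold the letters of a Stat site, TTCNNNGAA, which reads the same on both strands. They were picked after their values were seen. The sequences are RefSeq promoters on GRCm38.p6, written 5′ to 3′ on the strand of the gene and ending before its start, with the site in capitals. Among 27025 promoters of this table, 1 for each gene and each from 250 bases before to 50 bases after the start, 8.42% hold such a site.
Socs3, minus strand, chr11:117969427-117969566: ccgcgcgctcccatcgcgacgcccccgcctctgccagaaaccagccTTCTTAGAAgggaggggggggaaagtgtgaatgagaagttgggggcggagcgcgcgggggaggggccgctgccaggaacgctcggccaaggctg
Nupr1, minus strand, chr7:126625531-126625670: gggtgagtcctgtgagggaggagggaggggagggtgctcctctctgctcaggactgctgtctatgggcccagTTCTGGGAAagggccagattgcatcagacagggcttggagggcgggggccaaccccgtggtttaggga
Irf1, plus strand, chr11:53769814-53769953: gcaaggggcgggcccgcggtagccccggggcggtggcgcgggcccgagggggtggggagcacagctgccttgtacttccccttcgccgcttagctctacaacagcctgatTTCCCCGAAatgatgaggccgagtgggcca
Bcl6, minus strand, chr16:23988913-23989052: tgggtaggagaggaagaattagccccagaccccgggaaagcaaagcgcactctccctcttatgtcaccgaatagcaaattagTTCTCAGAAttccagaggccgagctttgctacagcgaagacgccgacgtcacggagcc
The site begins 154 bases before the start of Socs3, 128 before that of Nupr1, 90 before that of Irf1 and 118 before that of Bcl6. The evening changes of the 4 genes were 3.20, 4.60, -0.04 and -0.02 on the log2 scale. A match of letters is a description and no evidence of binding. The promoter of Sgk1, one of the 15 largest decreases (-3.22), holds such a site as well, further from the start than the stretch shown for the others. So do those of Cish and Zfp36, which stayed within 2-fold (0.77 and 0.68). The sites of Cish begin at its start and 11 bases after it, and that of Zfp36 17 bases before its start.

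Immediate-early genes, which are switched on within minutes of a stimulus, showed the largest median of the 27 lists. Of 31 kept, 16 were at least 2-fold higher and 1 was lower, with a median change of 1.09. Fos, a subunit of the AP-1 factor, had 245 counts in the morning and 1158 in the evening (2.41 [2.22, 2.63]). The orphan nuclear receptors moved as a group. Nr4a1 had 20 and 250 counts (3.70), Nr4a2 134 and 608 (2.35), and Nr4a3, below the filter, 0 and 49, at least 18.5-fold higher. The zinc-finger factor Egr1 had 103 and 220 counts (1.26) and Egr2 had 0 and 28, at least 10.6-fold higher. Of the phosphatases that end MAP kinase signals 3 were higher as well. Dusp1 had 374 and 702 counts (1.09 [0.91, 1.28]), Dusp2 30 and 103, and Dusp5 7 and 47, while Dusp6 had a change of 0.81. The 1 lower gene was Jun, the other AP-1 subunit, with 1398 counts in the morning and 500 in the evening (-1.30 [-1.45, -1.15]), while Junb (4710 and 7195, 0.79) and Jund (10777 and 10486, 0.14) stayed within 2-fold. Such genes are also expressed in other cells, and 4 of 5 smooth muscle markers were higher too, with a median of 1.46 from a sum of 18.9 CPM in the morning to 24.4 CPM in the evening. Their part in the result was not tested.

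Promoters of a pair of immediate-early genes are shown for the full cyclic AMP response element TGACGTCA, in capitals, which also reads the same on both strands and is held by 1.85% of the 27025 promoters.
Dusp1, minus strand, chr17:26508533-26508672: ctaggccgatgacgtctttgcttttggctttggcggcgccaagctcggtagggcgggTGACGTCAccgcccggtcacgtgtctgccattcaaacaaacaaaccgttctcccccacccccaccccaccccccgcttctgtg
Btg2, minus strand, chr1:134079216-134079355: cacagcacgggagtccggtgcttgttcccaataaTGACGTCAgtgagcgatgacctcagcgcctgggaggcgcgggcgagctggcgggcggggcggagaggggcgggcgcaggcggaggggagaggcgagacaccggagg
The element begins 143 bases before the start of Dusp1 and 166 before that of Btg2, an antiproliferative gene with 4537 counts in the morning and 5723 in the evening (0.52). Crem, a transcription factor that binds this element and whose short forms repress it, had 636 counts on day 3, 374 on day 4 morning, 3559 in the evening and 895 and 1101 on day 5. Its change of 3.43 [3.28, 3.59] was the first below the 15 ranked increases, and it was picked after its values were seen.

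None of the steroid receptors moved 2-fold among those kept. Pgr, the progesterone receptor, had 2988 counts in the morning and 2259 in the evening (-0.22), and Esr1, the main estrogen receptor, had 2676 and 1819 (-0.37). In the list of receptors, chaperones and coactivators 14 genes were kept, 0 were past 2-fold in either direction, 12 of them were below 0 and the median was -0.22. Below the filter, Esr2 had 27 counts in the morning and 1 in the evening.

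Genes known to respond to progesterone in the epithelium split into both directions. Of 22 kept, 5 were higher and 6 lower by 2-fold, with a median of -0.05. The higher group held Cyp26a1, the lipoxygenase Alox15 (7450 and 29757 counts, 2.18 [2.14, 2.22]), the hedgehog ligand Ihh (4135 and 8627, 1.24 [1.19, 1.30]), the transcription factor Foxo1 (1222 and 2471, 1.20) and the activin inhibitor Fst (20 and 64). In the lower group the transcription factor Gata2 had 15732 counts in the morning and 4762 in the evening (-1.54 [-1.59, -1.49]), and Klf15 had 379 and 135. Npl, an enzyme of sialic acid breakdown, had 31108 and 13177 counts (-1.06 [-1.09, -1.03]). The growth factor Areg, a textbook progesterone target, was level with 1182 and 1004 counts, as was the endocytic receptor Lrp2 with 19086 and 16302. The hedgehog targets Ptch1 (69 and 75 counts) and Gli1 (54 and 73) were low at both times.

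Genes known as estrogen-responsive in the uterus were more often higher. Of 20 kept, 9 were higher and 2 lower by 2-fold, and the median was 0.89. Genes of the Sprr2 group of the cornified envelope family made up 4 of the 9. Not all of the group were higher, since Sprr2e had a change of -0.35 and Sprr2a2, below the filter, had 0 counts at both times. Sprr2f had 2253 counts in the morning and 7335 in the evening (1.88 [1.82, 1.95]), Sprr2d 10 and 20, and Sprr2b 0 and 52, at least 19.7-fold higher, and as paralogs they can share reads with Sprr2g and each other. Complement C3 had 22 and 141 counts, and Lcn2 is given above. Against them stood Ltf, lactotransferrin, a classic estrogen target, which had 6232 counts on day 3, 932 on day 4 morning and 186 in the evening (-2.13 [-2.38, -1.91]). The gap junction gene Gjb2 had 387 and 649 counts (0.93), the mucin Muc1 1506 and 1730 (0.38), and Greb1 32 and 21.

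The gene groups that the study named Lif-induced and Lif-suppressed were also counted. They were formed partly on the day 4 morning library, so their direction here is not independent evidence. Of the 170 Lif-induced genes kept, 117 were higher and 4 lower by 2-fold in the evening, with a median of 1.67 and a summed level of 3679 CPM in the morning and 13203 CPM in the evening. Of the 195 Lif-suppressed genes, 0 were higher and 72 lower, with a median of -0.77 and sums of 352172 and 280037 CPM. The second sum includes the features Rn45s and Lars2, which belong to that group and are given above. The 2-fold shift was thus seen in most of the first group and in a minority of the second.

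Of 30 genes linked to attachment that were kept, 2 were higher and 5 lower by 2-fold, and the median was 0.19. Ptgs2, the inducible prostaglandin synthase, had 335 counts in the morning and 972 in the evening (1.71 [1.54, 1.90]), while the constitutive Ptgs1 had 4717 and 2048 (-1.02 [-1.10, -0.95]). The prostaglandin E synthase Ptges had 15 and 38 counts. Thus the inducible and the constitutive enzyme lay on opposite sides. Hbegf, an EGF family ligand found around the attaching embryo, had 134 and 218 counts (0.87), and on day 5 it had 876 away from the embryo and 5444 around it. Msx1, a homeobox factor of the receptive epithelium, had 10540 and 5452 counts (-0.77), and Msx2 had 52 and 13. The receptor gene Lpar3 (12268 and 9935, -0.12) and the histamine enzyme Hdc (42092 and 35550, -0.06) were high at both times and level.

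Among ligands and antagonists of the Wnt, Bmp, Fgf and Notch pathways 34 genes were kept, of which 8 were higher and 3 lower by 2-fold (median 0.35). Besides Lgr5, the Notch target Hey1 had 13 counts in the morning and 151 in the evening, the Notch ligand Jag1 415 and 1216 (1.73 [1.57, 1.90]), Wnt7b 115 and 409 (1.99) and the secreted Wnt antagonist Sfrp1 8 and 69. The fibroblast growth factors went opposite ways. Fgf9 had 49 and 290 counts (2.70 [2.31, 3.22]) and reached 3945 and 2950 on day 5, while Fgf1 had 3913 and 478 (-2.85) and 6 and 99 on day 5, and Fgf18 had 509 and 233 (-0.94). The abundant Wnt ligands Wnt11 (4272 and 6166) and Wnt5a (5061 and 3845) stayed within 2-fold.

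Of 33 transcription factors of the uterine epithelium kept, 3 were higher and 6 lower, with a median of -0.23. The higher ones were Cebpa (208 and 451 counts), Sox9 (269 and 571) and Foxo1. Of the lower ones, only Gata2 exceeded 100 counts. Foxa2, the defining factor of the glands, had 51 counts in the morning and 0 in the evening, at least 15-fold lower, and it is one of the gland markers given above. Sox17, an abundant factor of the receptive epithelium, had 38230 and 28768 counts (-0.23). The inhibitors of helix-loop-helix factors Id1, Id2 and Id3 had changes of -0.29, -0.72 and -0.44.

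At the epithelial surface, several genes that build or carry glycans were lower. Gcnt3, a mucin branching enzyme, had 14217 counts in the morning and 2865 in the evening (-2.13 [-2.19, -2.07]), and B3gnt5 is given above, as is Chst9, which is in no list. Podxl, a sialomucin that keeps apical membranes apart, had 1182 and 263 counts (-1.98 [-2.18, -1.79]). Gcnt3, B3gnt5 and Podxl were the 3 lower genes among 23 kept in the list of surface mucins and glycan transferases, with 1 higher and a median of 0.15. Muc4 had 65 and 107 counts, and the sialyltransferase St6gal1 had 984 and 1061.

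Ion transport genes moved in both directions. Of 23 kept, 4 were higher and 5 lower, with a median of 0. Slc26a6, an anion exchanger, had 48 counts in the morning and 447 in the evening (3.35 [2.97, 3.86]), the carbonic anhydrase Car12 had 175 and 1569 (3.33 [3.12, 3.58]) and the potassium channel Kcnk5 had 207 and 497 (1.44). Sodium channel genes were lower or level. Scnn1a, a subunit of the epithelial sodium channel, had 349 and 126 counts (-1.27 [-1.59, -0.99]), together with its activator Sgk1, whereas Scnn1b had 120 and 88 (-0.26) and the chloride channel Cftr 190 and 226 (0.43). The water channel Aqp4 had 106 and 17 counts, and Aqp5 had 4 and 0.

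Among transporters of amino acids, zinc and iron 3 of 26 were higher and 3 lower, with a median of -0.03. Slc6a14, a broad amino acid carrier, had 11577 counts in the morning and 2071 in the evening (-2.30 [-2.37, -2.23]), and the cystine carrier Slc7a11 had 797 and 217 (-1.69). The zinc and manganese carrier Slc39a8 had 884 and 2106 counts (1.43 [1.32, 1.55]). For iron, the uptake receptor Tfrc had 260 and 556 counts (1.27) and the exporter Slc40a1 had 542 and 214 (-1.15), opposite in direction.

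Glutathione and antioxidant genes were a list in which decreases outnumbered increases, with 4 of 38 higher and 7 lower and a median of -0.15. The glutathione peroxidase Gpx2 was the outstanding increase, from 4849 to 22467 counts (2.39 [2.35, 2.44]). Of the 7 Mu class transferases kept, Gstm2 and Gstm7 were lower and Gstm5 higher. Gstm7 had 5311 and 1807 counts (-1.37) and Gstm1 had 77263 and 36516 (-0.90), while Gstm5 had 171 and 489 (1.69), and these paralogs can share reads. Of cytochrome P450, esterase and conjugation genes 5 of 18 were higher and 3 lower (median 0.19). The carboxylesterase Ces1d had 3386 counts in the morning and 592 in the evening (-2.33 [-2.46, -2.21]), and the sulfotransferase Sult1d1 had 38054 and 15943 (-1.07 [-1.10, -1.05]).

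Metabolic lists had medians close to 0, with single genes far out. In cholesterol and fatty acid synthesis 3 of 34 genes were higher and 1 lower (median 0.14), and Pmvk, an enzyme of the mevalonate pathway, went from 1331 to 5444 counts (2.21 [2.13, 2.30]). The genes Mvk and Hmgcs1 of the same pathway did not follow. Mvk had 90 and 42 counts and Hmgcs1 939 and 432. In glycolysis and the hypoxia response 3 of 33 were higher and 3 lower (median -0.17). Hif1a, the oxygen-regulated transcription factor, had 33022 counts in the morning and 12191 in the evening (-1.25 [-1.28, -1.22]), while Ndrg1 had 764 and 3038 (2.17 [2.06, 2.29]). Ddit4, an inhibitor of mTORC1, had 371 and 65 counts (-2.30 [-2.73, -1.95]). Gapdh drew few counts (42 and 45), and since the gene has many near-identical copies its value is uncertain. Of the polyamine genes 1 of 14 was higher, Srm (124 and 266), and 1 lower, Arg2 (208 and 67), with a median of -0.26.

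Of 29 unfolded protein response genes 3 were higher and 2 lower (median 0.21). Xbp1, a transcription factor of secretory cells, had 3433 counts in the morning and 8055 in the evening (1.41 [1.36, 1.47]), and Dnajc3 had 1323 and 2392, whereas the chaperone Hspa5 had 7280 and 8643 (0.43). The 15 heat shock chaperones held no gene past 2-fold, and 13 of them lay above 0, with a median of 0.31.

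Interferon-stimulated genes included 8 higher and 0 lower among 33 kept, with a median of 0.27. Zbp1, a sensor of nucleic acids, had 203 counts in the morning and 849 in the evening (2.24 [2.02, 2.48]), the guanylate-binding protein gene Gbp2 217 and 622 (1.69), Usp18 744 and 1573 (1.26) and the exonuclease Isg20 4585 and 9586 (1.25 [1.20, 1.30]). Oas2, Oas3, Ifi44 and Rtp4 were the other 4, with changes between 1.06 and 1.66. Among members within 2-fold, Ifit1 had 6223 and 6242 counts and Irf7 3782 and 2490. Of 21 chemokine and interleukin 1 family genes, 6 were higher and 3 lower (median 0.05). Cxcl5 had 108 and 403 counts (2.06), Cxcl14 169 and 487 (1.70) and Cxcl17 1056 and 2562 (1.46 [1.36, 1.57]). The interleukin 1 ligands Il1a (1 and 41) and Il1b (2 and 40) appeared at low level, while their antagonist Il1rn had 20 and 1. The leukocyte markers, of which 0 differed 2-fold, are summed above.

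Of 33 serine protease and inhibitor genes kept, 7 were higher and 4 lower, with a median of 0. Prss23 had the most counts of those that moved, from 5896 to 26725 counts (2.36 [2.32, 2.40]). Prss22 had 76 and 350 counts (2.36), the inhibitor Serpinb5 110 and 472 (2.26), and the kallikrein Klk10 111 and 16 (-2.48).

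Of 34 cell cycle and DNA replication genes kept, 3 were higher and 5 lower (median 0.19). Of the replication genes, Mcm3 was at 165 and 298 counts (1.03) and Mcm4 at 391 and 656 (0.93). Mcm2, Mcm5, Mcm6, Pcna, Rrm1 and Rrm2 had smaller changes, between 0.29 and 0.50, and Mcm7 (-0.19) and Tyms (-0.85) lay below 0. Of the genes of mitosis, Plk1 had 108 and 20 counts (-2.15), Aurkb had a change of 0.39, Ccnb2 had 251 and 100 counts (-1.13) and the proliferation marker Mki67 543 and 266 (-0.84), down from 2273 on day 3. Top2a, a topoisomerase of replicating and dividing cells, had 840 counts in the morning and 2176 in the evening (1.55 [1.44, 1.67]). Cdkn1c, an inhibitor of the cell cycle, had 2809 and 5187 counts (1.07 [1.00, 1.13]). Among cell death regulators 1 of 30 was higher and 2 lower (median -0.0028). The death receptor Fas had 14 and 68 counts, and besides Bbc3 its relative Bmf had 253 and 53 (-2.04 [-2.53, -1.64]).

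The pair also differs in time of day, which cannot be told apart from progress through pregnancy. Of 13 core clock genes kept, 1 was higher and 0 lower by 2-fold, but 12 of 13 lay above 0, with a median of 0.66. Nr1d1, a repressor of the clock, had 121 counts in the morning and 240 in the evening (1.16 [0.85, 1.50]), Per2 84 and 143 (0.93) and Clock 843 and 1262 (0.76). Arntl, which peaks opposite to the Per genes in most tissues, was not opposite here, with 229 and 264 counts (0.39), and Per1 was level with 333 and 311. Of 12 clock output genes 1 was higher and 1 lower. The higher one was the repressor Nfil3, with 1053 and 3839 counts (2.05 [1.95, 2.15]), while its counterpart Dbp had 295 and 279 (0.10).

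**Figure D3:**
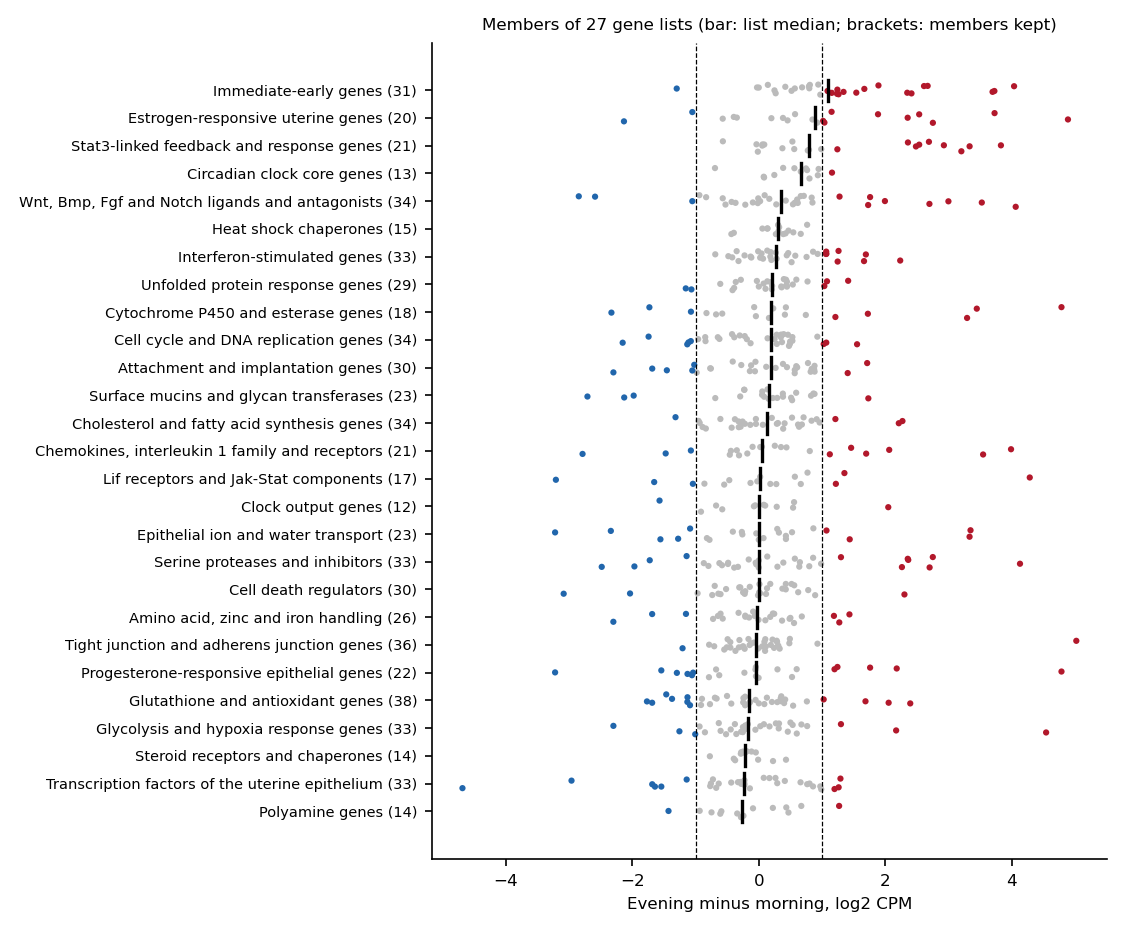
Each point is a kept member of 1 of 27 gene lists, placed by its evening minus morning difference in log2 CPM, red at 1 or above, blue at -1 or below and grey between (dashed lines); the bar is the list's median and the number in brackets its members kept. Immediate-early, estrogen-responsive, Stat3-linked and core clock genes have the highest medians, from 1.09 to 0.66.

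The evening library was next set against all 4 others. Among the 302 higher genes of at least 10 CPM, 93 (30.8%) had their highest value of the 5 libraries in the evening, and 39 (12.9%) exceeded every other library 2-fold. Among the 286 lower genes of that level, 60 (21.0%) had their lowest value in the evening, 18 of them (6.29%) by 2-fold. For the rest, at least 1 of the libraries before or after lay further out. A gene chosen for a high or low evening value tends to be extreme there. These shares are a description too, without the same shares over all genes beside them. The genes named in the next sentences, other than list members, were picked after their values were seen.

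The evening peaks included genes that were lower both before and after. Aldoc had 160 counts on day 3, 37 on day 4 morning, 800 in the evening and 38 and 92 on day 5 away from and around the embryo. Pmvk had 1385, 1331, 5444, 1057 and 635 counts in the same order, and Nr4a2 had 206, 134, 608, 59 and 119. Each was lower in both day 5 libraries than in the evening. Nfkbia, the inhibitor of NF-kappa B, had 2328, 3625, 9441, 3086 and 2039 counts. Ctgf, a matrix-associated relative of Cyr61, had 1734, 13153, 29342, 4716 and 3534, and the Nudix hydrolase gene Nudt19 had 4337, 22712, 48792, 2249 and 8512. These abundant genes had begun to increase by day 4 morning, unlike Aldoc and Pmvk.

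Evening lows were fewer than peaks among genes of at least 10 CPM. Over all kept genes the order was the other way round, with 378 of the 898 lower genes (42.1%) lowest in the evening and 227 of the 931 higher genes (24.4%) highest. Sgk1 lay at least 3.22 on the log2 scale under each of the other libraries. The helix-loop-helix inhibitor Id4 had 1458 counts on day 3, 558 and 186 on day 4 and 2059 and 688 on day 5, and the transcriptional coregulator Cited2 had 798, 516, 216, 1580 and 1719. Both had fewer counts in the evening than in either earlier library and more in both day 5 libraries. Prap1, a secreted epithelial protein, had 6991, 1260, 428, 31970 and 22447 counts, and the semaphorin gene Sema3e had 602, 612, 118, 505 and 1447.

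**Figure D4:**
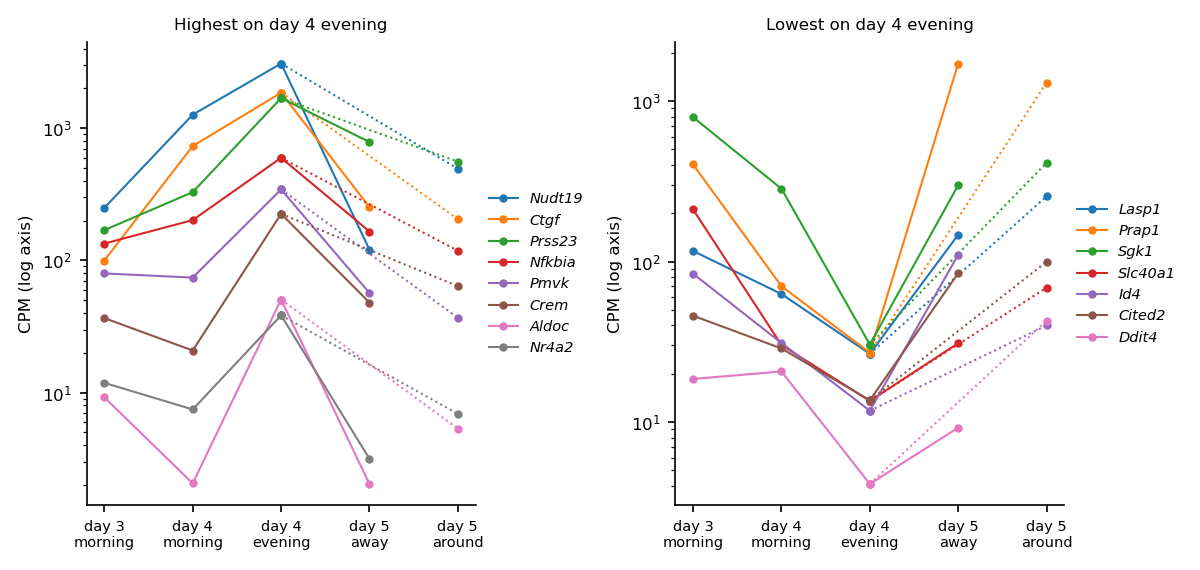
CPM on a log axis of 8 genes with their highest value (left) and 7 with their lowest value (right) on day 4 evening, in the 5 libraries; solid lines run to the day 5 library away from the embryo and dotted lines to the one around it, and each point is 1 library. Aldoc and Pmvk are highest in the evening and lower on day 4 morning than on day 3 or level with it, while Ctgf and Nudt19 are already raised on day 4 morning.

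The day 4 morning library was set against all others in the same way. Of the 302 higher genes of at least 10 CPM, 151 had their lowest value of the 5 libraries on day 4 morning, 46 (15.2%) by 2-fold under every other, and of the 286 lower genes 189 (66.1%) had their highest value there, 43 (15%) by 2-fold. A gene chosen for a low morning value tends to be lowest there, and one chosen for a high value highest. These shares are therefore a description, and the same shares over all genes are not given here. Sftpd had 1445 counts on day 3, 168 on day 4 morning, 2322 in the evening and 13956 and 10538 on day 5. Lgr5 had 430, 108, 1617, 1504 and 582, and Nupr1 had 990, 143, 3103, 14936 and 26628. Lrat and Cyp26a1 differed in that their day 3 counts were low as well. Sprr2f also dipped on day 4 morning, at 2253 counts after 18988 on day 3.

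The direction taken within day 4 was then followed in comparisons that share neither day 4 library. Between day 3 and day 5 away from the embryo, 13.5% of all 12915 genes were at least 2-fold higher on day 5 and 15.8% at least 2-fold lower. Of the 931 genes higher in the evening, 446 (47.9%) were higher on day 5 and 136 (14.6%) lower, with a median log2 change of 0.88 against -0.01 for all genes. Of the 898 genes lower in the evening, 473 (52.7%) were lower on day 5 and 96 (10.7%) higher, with a median of -1.16. The within-day direction was thus the more frequent one from day 3 to day 5 in both groups. Around the embryo 19% of all genes were higher and 23% lower than on day 3, and the shares in the evening direction were 57.9% of the higher and 54.9% of the lower genes. In the direct comparison of the day 5 libraries 13.4% of all genes were higher around the embryo and 15% lower. The genes higher in the evening were higher around the embryo in 38.5% and lower in 15.7%, whereas those lower in the evening split into 24.6% higher and 26.6% lower. The day 5 libraries also differed in markers of other cells. Away from and around the embryo, blastocyst markers summed to 11.5 and 119 CPM and smooth muscle markers to 31.8 and 395 CPM. Endothelial markers summed to 45.6 and 99.8 CPM. Stromal (526 and 382 CPM), leukocyte (241 and 144 CPM) and blood cell markers (2.95 and 1.28 CPM) went the other way. The part of these cells in the shares was not tested. Genes of low level, which make up most of the evening-higher and evening-lower genes, are past 2-fold more often in any comparison. With the 302 and 286 genes of at least 10 CPM alone, 51.0% of the higher genes were higher away from the embryo than on day 3, and 62.2% of the lower genes were lower, against 9.35% and 11.4% of all 8460 genes of that level. Between the day 5 libraries, 8.43% of these 8460 genes were higher around the embryo and 11% lower. There the evening-higher genes of that level were 32.5% higher and 12.3% lower. The evening-lower genes of that level were not evenly split, with 17.8% higher and 29% lower around the embryo.

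**Figure D5:**
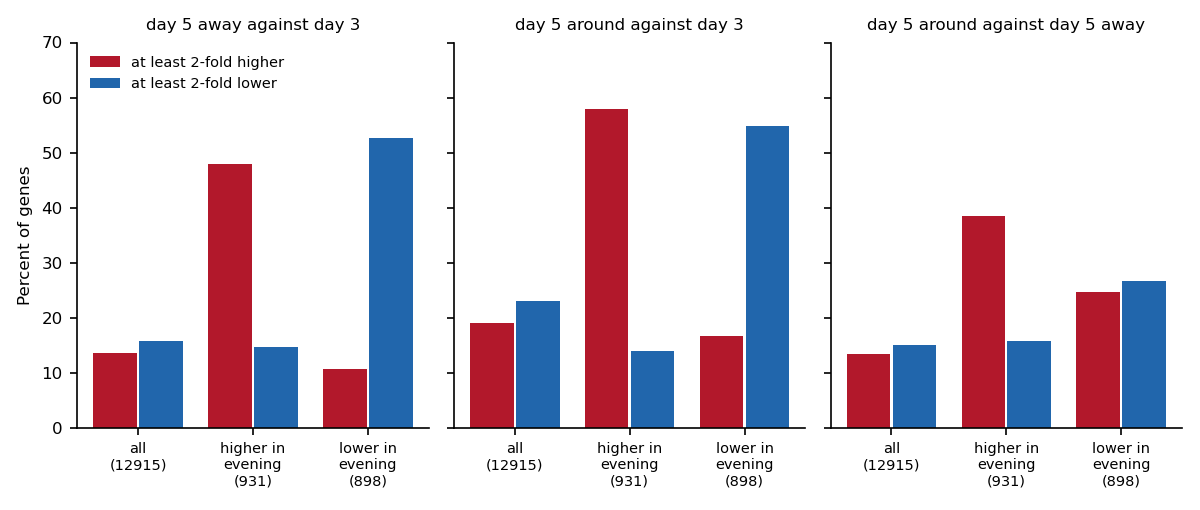
Bars give the percent of genes at least 2-fold higher (red) or lower (blue) in 3 comparisons of libraries other than the day 4 pair, for all 12915 genes, the 931 genes higher in the evening and the 898 lower in the evening. Evening-higher genes lean higher in all 3 panels, and evening-lower genes lean lower in the 2 comparisons with day 3.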

How the data were processed

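RNA of the luminal layer had been amplified with the SMART-seq v.4 kit and sequenced as read pairs, and the submitters' processing notes name HISAT2, featureCounts of Subread 2.0.0 and the builds GRCm38 and mm10. The authors deposited raw counts per gene, 1 column per library, with no normalization. The gene annotation, the strand setting and the handling of reads with several alignments are not given in the sources used here, so counts of overlapping genes and of paralogs are uncertain. The names of 27 genes have the form of dates and were kept.

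Counts were read with Python 3.11.15 and pandas 2.3.3 and scaled by TMM over the 5 libraries in R 4.3.3 with edgeR 4.0.16. Genes that averaged 1 CPM or more over the 5 libraries were kept. A prior count of 2 was added before taking log2, RPKM values use the deposited exon length, and intervals are exact (scipy 1.17.1). Total counts ranged from 15334674 to 19529491 over the 5 libraries. With 1 library per time no test between times was made, and a gene counted as higher or lower from 2-fold on. The scripts were tested on simulated data.

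Named were the 15 largest differences in each direction among genes that averaged 10 CPM or more over the day 4 pair, the 10 genes with the highest RPKM, and members of 27 gene lists and 8 marker lists, with preference for large differences and at least 10 CPM. Other names are marked as picked after their values were seen. The pair, the lists and the rules were chosen with earlier results of these data known. Alternatives were other library scalings, a prior count of 0.5, other filters, stricter folds, the counting interval, DESeq2 1.42.0 size factors and the exact test of edgeR at fixed dispersions. A comparison of motif shares between gene groups was planned and is void, because only 74.2% of the kept genes matched a promoter in the RefSeq table, under the 80% needed.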

Additional observations from a re-analysis of the deposited data

How the results depend on the processing

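Against 931 genes higher and 898 lower in the evening, the counts depended on the filter and on the rule for a difference. They were 1932 higher and 1653 lower with no filter on CPM, 550 and 465 with a mean of at least 5 CPM over the 5 libraries, 499 and 401 where the whole counting interval lay beyond 2-fold, and 308 and 180 at 4-fold. With the exact test of edgeR, a false discovery rate under 0.05 and 2-fold, which compares these libraries and not the times, they were 158 and 83 at a fixed dispersion of 0.1, 15 and 12 at 0.2, and 0 and 0 at 0.4. The dispersion cannot be estimated from 1 library per time. The other scalings and the prior count of 0.5 kept both counts within 1.5 times. A filter of at least 1 CPM over the day 4 pair did so too, but it reversed their order, with 769 higher and 819 lower. Library totals shifted the median of all genes by 0.0478 and made 55.2% of the differences increases, against 50.9%. All 30 ranked genes kept their direction and stayed past 2-fold in 150 of 150 alternatives, moving by at most 0.689. Medians of lists kept their sign in 190 of 210 alternatives, and the others lay near 0. With genes at 0 counts in 1 library set to their bounds, the median moved for smooth muscle markers, by 0.212, and for 1 cluster of the Lif-induced genes, by 0.0579. No paired analysis was possible because each time has 1 library, and for the same reason none could be left out. Depth limits genes under 10 CPM most, where 27.9% passed 2-fold.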
